A study of Sus scrofa with 6 samples.

Results

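Antigen presentation was examined through 5 genes of the major histocompatibility complex (MHC) pathways, which in the pig is called the swine leukocyte antigen (SLA) complex. B2M and TAP1 serve class I, and SLA-DRA, CD74 and SLA-DMB serve class II. Members were all probe sets whose platform gene symbol is exactly 1 of these 5 names. There were 15 such probe sets among 23999, with 9 for B2M, 3 for TAP1 and 1 each for SLA-DRA, CD74 and SLA-DMB. The tissue was longissimus dorsi, the long back muscle, from boars of 2 breeds, 3 Large White animals that served as controls and 3 Northeastern Indigenous animals. All 6 animals were killed at 150 days after rearing under the same feeding and housing, and 1 Affymetrix Porcine Genome Array was read for each. The labels call the arrays biological replicates and give no pedigree, herd or SLA haplotype, so each breed is represented here by 3 boars of unknown relatedness.

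Class I molecules display peptides made inside the cell. The proteasome cuts them, the TAP transporter carries them into the endoplasmic reticulum, and they are loaded onto a heavy chain paired with beta-2 microglobulin, the B2M product. Nearly all nucleated cells carry class I. Class II molecules display peptides from material taken up from outside, and are made mainly by macrophages, dendritic cells and B cells. The invariant chain CD74 guards the class II groove until the DM molecule exchanges its remnant for a peptide. Interferon-gamma raises transcription of both pathways. Mature muscle fibres express little of either, so in whole muscle the RNA of these genes comes from a mixture of cells. In such bulk samples, fewer cells of a type and less RNA per cell cannot be told apart.

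The 4 members TAP1, SLA-DRA, CD74 and SLA-DMB were all dimmer in Northeastern Indigenous boars, by 1.36 to 2.28 log2 units, and the breeds did not overlap in any of them. None passed the threshold over all probe sets in limma (adjusted p = 0.223 to 0.224, from a fit over 14399 probe sets). The B2M probe sets disagreed with each other. Of 9, 2 had no overlap between the breeds and were dimmer in Northeastern Indigenous boars, and 3 had higher means there. Values are log2 intensities after quantile normalization, and differences are Northeastern Indigenous minus Large White throughout.

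Limma called 0 of the 14399 tested probe sets at an adjusted p under 0.05, which is 0% of them. Of the member probe sets, 13 of 15 were bright enough to be tested, above a log2 intensity of 5.85. At an unadjusted p under 0.05, 6 of these 13 were lower in Northeastern Indigenous boars, where 9.97% of all tested probe sets were. The same 6 had no overlap between the breeds in that direction, against 10.9% of all tested probe sets. Of the 13, 9 are probe sets of the same gene, B2M. The members and the gene lists below were chosen with earlier results of these data known. Shares set beside their counts are therefore descriptive and no test of them. With 3 arrays per breed, no overlap gives a two-sided exact permutation p of 0.1, the smallest this design allows.

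The tissue label was checked against 17 measured muscle fibre genes. Their summed intensity lay between 400778 and 453363 on the Northeastern Indigenous arrays and between 53502 and 399555 on the Large White arrays, with the lowest sum on Large White replicate 1. The median of the 17 genes on that array was -3.77 log2 units relative to the Northeastern Indigenous mean. It was -0.4 for replicate 3 of the same breed and -0.03 for replicate 2. The muscle signal was thus strongly reduced on 1 Large White array only. The adipocyte genes stood apart on the same breed. Relative to the Northeastern Indigenous mean, the median of 7 of them was 6.01 log2 units higher for Large White replicate 1, 4.13 for replicate 3 and -0.12 for replicate 2. Most results below are therefore also given against Large White replicate 2 alone. The ratio of the 3' to the 5' control probe set of GAPDH, a check on RNA integrity, ran from 1.247 to 1.394 over the 6 arrays. The same ratio of the actin controls ran from 5.56 to 9.72 in Large White and from 6.69 to 10.85 in Northeastern Indigenous boars, and its part in the results was not tested.

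TAP1, a subunit of the peptide transporter, read 10.37, 9.64 and 9.46 on Large White replicates 1, 2 and 3. In Northeastern Indigenous boars it read 8.08, 8.21 and 8.40. All Large White arrays were brighter than all Northeastern Indigenous arrays, with 1.06 log2 units between the nearest pair. The breed means were 9.82 ± 0.49 and 8.23 ± 0.16 (SD, n = 3), and the difference of -1.60 ± 0.32 (SE; limma adjusted p = 0.224) is a 3.02-fold lower mean intensity. Large White replicate 2 was brighter than replicate 3 for TAP1, which was not so for SLA-DRA, CD74 or SLA-DMB. The other TAP1 probe sets lay below the filter, with mean log2 intensities of 5.09 and 4.61. They were not tested, and both overlapped between the breeds. The dimmest ran from 2.95 to 5.68 in Large White and from 4.68 to 6.69 in Northeastern Indigenous boars, so TAP1 rests on a single bright probe set.

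SLA-DRA encodes the alpha chain of the DR class II molecule. It read 13.73, 11.95 and 13.13 on Large White replicates 1, 2 and 3 and 10.72, 11.23 and 10.58 on Northeastern Indigenous replicates 1, 2 and 3. The groups were separate by 0.72 log2 units between Large White replicate 2 and Northeastern Indigenous replicate 2. The difference of -2.09 ± 0.46 (SE; limma adjusted p = 0.224) is a 4.27-fold lower mean intensity, from 12.94 ± 0.91 to 10.84 ± 0.34 (SD, n = 3 per breed).

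CD74, the invariant chain and chaperone of class II, read 11.45, 10.53 and 11.53 on the Large White arrays. The Northeastern Indigenous arrays read 9.85, 10.20 and 9.39. These groups were the closest of the 4 genes, with 0.33 log2 units between them. The difference was -1.36 ± 0.37 (SE; 9.82 ± 0.41 against 11.17 ± 0.56, SD, n = 3 per breed; limma adjusted p = 0.224).

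SLA-DMB encodes the beta chain of the DM molecule. The probe set read 11.73, 10.51 and 11.24 in Large White boars and 8.74, 9.14 and 8.74 in Northeastern Indigenous boars. The gap between the breeds, 1.37 log2 units, was the widest of the 15 member probe sets. The mean was 4.87-fold lower in Northeastern Indigenous boars (-2.28 ± 0.36, SE; 8.87 ± 0.23 against 11.16 ± 0.61, SD, n = 3 per breed; limma adjusted p = 0.223).

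**Figure D1:**
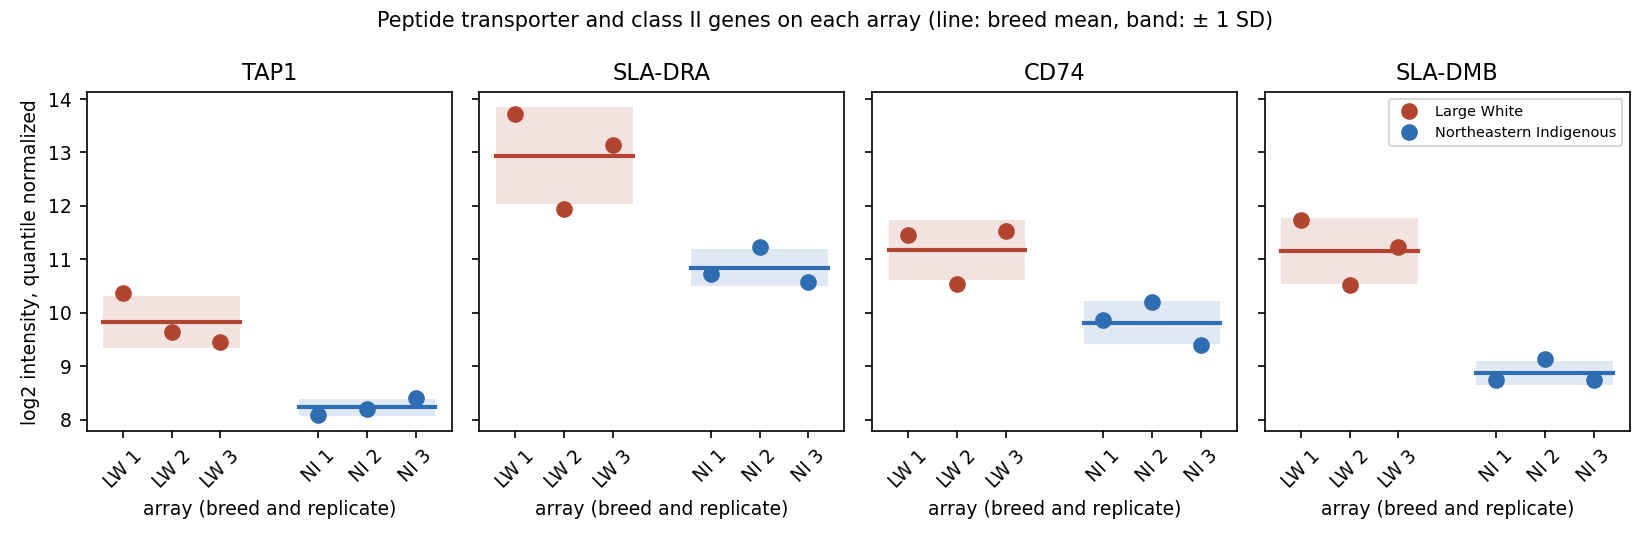
Log2 intensity (quantile normalized, y axis) of TAP1, SLA-DRA, CD74 and SLA-DMB on each of the 6 arrays (x axis; LW Large White, NI Northeastern Indigenous), with the breed mean as a line and 1 SD as a band. Every Large White point lies above every Northeastern Indigenous point of the same gene, and Large White replicate 2 is the lowest of its breed for the 3 class II genes but not for TAP1.

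The class II members shared the place of replicate 2 in each breed, but not the full order of the arrays. In Large White boars replicate 2 was the dimmest for SLA-DRA, CD74 and SLA-DMB, and in Northeastern Indigenous boars replicate 2 was the brightest for all 3. Large White replicate 3 was above replicate 1 for CD74 and below it for SLA-DRA and SLA-DMB. TAP1 had neither feature of replicate 2, with Northeastern Indigenous replicate 3 its brightest array of that breed. On Northeastern Indigenous replicate 2 several lists stood above the mean of their breed, the blood cell list most, by 1.81. The T cell list stood 1.00 above it, the NK cell list 0.89 and the general leukocyte list 0.79. The adipocyte list stood 0.63 above it and the macrophage list 0.61. SLA-DRA and SLA-DMB had the most similar patterns of the 4 genes, with a root mean square difference of 0.21 between their centred log2 intensities over the 6 arrays. The same measure was 0.46 between SLA-DRA and CD74 and 0.46 between TAP1 and SLA-DMB.

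Against Large White replicate 2 alone, the array with the least adipocyte signal of its breed, all 4 genes were dimmer in Northeastern Indigenous boars. That direction follows from the lack of overlap, so only the sizes are informative. The differences were -1.64 ± 0.30 for SLA-DMB, -1.41 ± 0.30 for TAP1, -1.11 ± 0.30 for SLA-DRA and -0.72 ± 0.35 for CD74 (SE, with the lone Large White array assumed to vary like the Northeastern Indigenous ones). None passed in limma (adjusted p = 0.186 to 0.543). Of the 13 tested member probe sets 4 were lower at an unadjusted p under 0.05, those of TAP1, SLA-DRA and SLA-DMB and 1 of B2M (Ssc.12809.5.A1_at), where 4.01% of all tested probe sets were. These differences were smaller than those over all 3 Large White arrays, by 1.5 times or more for SLA-DRA and CD74.

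Without Large White replicate 2, 9 of the 13 tested member probe sets were called, 6 lower and 3 higher in Northeastern Indigenous boars. TAP1 was at -1.69 (limma adjusted p = 0.0142), SLA-DRA at -2.59 (0.00523), CD74 at -1.68 (0.011) and SLA-DMB at -2.61 (0.00451). B2M was called in both directions. Its pair Ssc.12348.1.S1_at and Ssc.12348.2.S1_at was called lower, at -0.86 and -1.50 (limma adjusted p = 0.0134 and 0.0077). Ssc.12809.5.A1_at, Ssc.17269.1.S1_at and Ssc.19916.2.S1_a_at were called higher, at 0.99, 1.32 and 1.08 (limma adjusted p = 0.0497, 0.0126 and 0.0305). In that comparison 30.7% of all tested probe sets were called and 15.3% were called lower, so a call there is common. It sets Large White replicates 1 and 3, the arrays with high adipocyte signal, against the Northeastern Indigenous arrays. Their muscle list medians, relative to the Northeastern Indigenous mean, were -3.77 and -0.4 in that order. Breed and whatever sets those 2 arrays apart cannot be told apart in that comparison.

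B2M had 9 probe sets, which the platform annotation assigns to the same gene identifier. RefSeq's Sscrofa11.1 assembly holds 2 genes of that symbol, so near-identical copies may share signal. The brightest B2M probe set, Ssc.8925.1.S1_at, read 15.04, 14.90 and 15.11 on the Large White arrays and 14.63, 15.21 and 14.71 on the Northeastern Indigenous arrays. The breeds overlapped, with a difference of -0.17 ± 0.18 (SE, n = 3 per breed; limma adjusted p = 0.571). The next brightest, Ssc.5896.1.S1_at, ran from 14.58 to 14.71 over the 6 arrays after quantile normalization. That narrow range comes with the normalization, since the deposited intensities of this probe set ran from 18180 on Large White replicate 1 to 35250 on Large White replicate 2. These probe sets are among the brightest on the chip, with 9 to 76 and 64 to 88 others above them on each array. Both differences turned positive without quantile normalization (0.20 and 0.26) and with arrays centred on their medians (0.34 and 0.40), so they have no settled direction.

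A pair of B2M probe sets had the Large White order of SLA-DRA and SLA-DMB. Ssc.12348.1.S1_at read 15.11, 14.43 and 14.86 in Large White boars and 13.96, 14.31 and 14.10 in Northeastern Indigenous boars, a difference of -0.68 ± 0.20 (SE; limma adjusted p = 0.224). Ssc.12348.2.S1_at read 14.95, 13.66 and 14.47 against 13.24, 13.44 and 12.95, a difference of -1.15 ± 0.33 (SE; limma adjusted p = 0.224). In both, the breeds did not overlap and Large White replicate 1 was the brightest array. The second had a pattern within 0.22 (root mean square) of that of CD74. Against Large White replicate 2 alone they stood at -0.31 ± 0.15 and -0.45 ± 0.20 (SE), smaller than the differences of TAP1, SLA-DRA and SLA-DMB on the same array.

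Another 3 B2M probe sets ran the other way within the Large White breed. Ssc.17269.1.S1_at read 9.21, 10.73 and 9.61 on Large White replicates 1, 2 and 3 and 10.68, 10.87 and 10.62 in Northeastern Indigenous boars, with a difference of 0.88 ± 0.41 (SE; limma adjusted p = 0.287). Ssc.12809.5.A1_at and Ssc.19916.2.S1_a_at had differences of 0.47 ± 0.48 and 0.61 ± 0.45 (SE; limma adjusted p = 0.557 and 0.432). In all 3, Large White replicate 1 was the dimmest array and replicate 2 the brightest of its breed, the reverse of the order of SLA-DRA and SLA-DMB. Their patterns lay closer to the mean of the muscle fibre list (root mean square difference 0.96 to 1.00) than to that of the macrophage list (1.50 to 1.59). For the Ssc.12348 probe sets the same distances were 1.80 and 2.08 to the muscle list and 0.63 and 0.40 to the macrophage list. Against Large White replicate 2 alone these 3 stood at -0.01, -0.56 and -0.35.

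The remaining B2M probe sets, Ssc.12809.4.S1_a_at and Ssc.7768.1.A1_at, had differences of -0.65 ± 0.38 and -0.35 ± 0.30 (SE) and overlapped between the breeds. The B2M differences therefore spanned -1.15 to 0.88 for probe sets annotated to the same gene. The brightest one, which stands for B2M in the class I list, gave -0.17. The probe sequences were not used here, and an allele difference under a probe and a difference in level cannot be told apart in any single probe set.

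**Figure D2:**
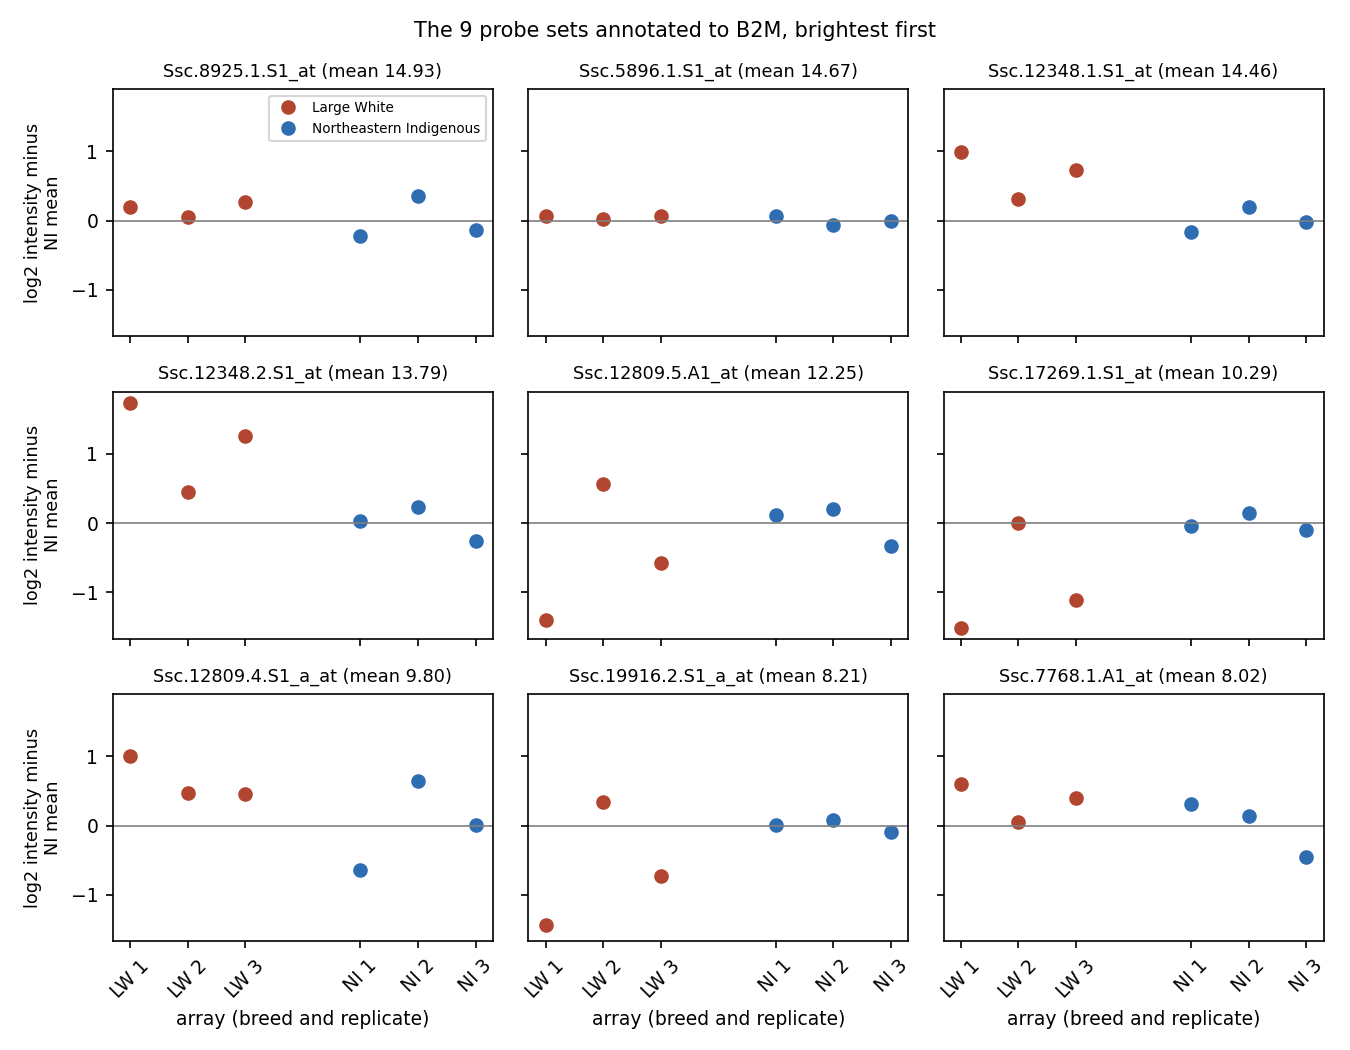
Log2 intensity minus the Northeastern Indigenous mean (y axis) on the 6 arrays (x axis) for each of the 9 probe sets annotated to B2M, ordered from bright to dim, with the mean log2 intensity in each title. The Ssc.12348 pair is raised on Large White replicates 1 and 3, while Ssc.12809.5.A1_at, Ssc.17269.1.S1_at and Ssc.19916.2.S1_a_at are lowered there.

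The class I list held 11 measured genes, of which TAP1 and B2M are members. The other 9 all had a difference below 0, also without quantile normalization and with arrays centred on their medians, with a median of -1.0. Of the 5438 named genes 45.3% were below 0, and their median was 0.09. Among the 9, 0 passed the adjusted threshold, 5 were at an unadjusted p under 0.05 (11.4% of named genes were, in that direction) and 4 had no overlap (12.3% of named genes). The class I heavy chain genes SLA-2, SLA-3 and SLA-8 differed by -1.11 ± 0.36, -1.71 ± 0.50 and -1.11 ± 0.35 (SE; limma adjusted p = 0.224 to 0.228). A second SLA-8 probe set was at -0.85 ± 0.47 and overlapped. SLA-2 was barely separate, at 12.91 on Large White replicate 2 and 12.88 on Northeastern Indigenous replicate 2. The SLA-2, SLA-3, SLA-6 and second SLA-8 probe sets carry the number 13780 in their names. So do probe sets annotated to several class I genes. Whether they share signal was not tested, so these counts may not be of independent genes. The chaperones of folding and loading ranged widely. PDIA3 (ERp57) was at -1.24 ± 0.51 and CANX (calnexin) at -0.80 ± 0.42, while TAPBP (tapasin) was at -0.20 ± 0.23 and CALR (calreticulin) at -0.07 ± 0.25 (SE). In each of these 4 the breeds overlapped. Against Large White replicate 2 alone the median of all 11 genes was -0.28, with 10 of them below 0. The share of all named genes below 0 was not computed for that comparison. With arrays centred on their medians it was -0.61, where the median of all named genes was 0.16.

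The immunoproteasome, the form of the proteasome that interferon-gamma induces to make class I peptides, was represented by 4 genes. PSMB8, a catalytic subunit, read 10.62, 10.29 and 9.99 in Large White boars and 8.64, 9.76 and 8.28 in Northeastern Indigenous boars (-1.41 ± 0.43, SE; limma adjusted p = 0.224). PSMB10, another catalytic subunit, and the activator genes PSME1 and PSME2 differed by -0.75 ± 0.31, -0.71 ± 0.30 and -0.60 ± 0.27 (SE; limma adjusted p = 0.260 to 0.272). In all 4 the breeds did not overlap (12.3% of named genes), 3 were at an unadjusted p under 0.05 (11.4% of named genes), and 0 passed the adjusted threshold. Here the median against Large White replicate 2 alone, -0.71, was close to the full value of -0.73.

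The class II list held 15 measured genes, of which SLA-DRA, CD74 and SLA-DMB are members. Of the other 12, 11 were below 0 (45.3% of named genes), 9 were at an unadjusted p under 0.05 (11.4%) and 7 had no overlap (12.3%), with a median of -1.58. None passed the adjusted threshold. IFI30, a lysosomal reductase that unfolds antigens, read 12.42, 10.30 and 11.30 in Large White boars and 8.54, 8.40 and 8.12 in Northeastern Indigenous boars. Its difference, -2.99 ± 0.52 (SE; limma adjusted p = 0.223), was the largest of the list, and a second probe set was at -3.04 ± 0.87. SLA-DQA1, the DQ alpha chain, differed by -2.24 ± 0.52 (SE; limma adjusted p = 0.224). The exception above 0 was RFXANK, a subunit of the RFX factor that binds class II promoters, at 0.56 ± 0.45 with overlap. The class II transactivator CIITA was below the filter and not tested. Against Large White replicate 2 alone the median of all 15 was -0.71, with 14 of them below 0 (share of named genes not computed).

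SLA-DMA, which encodes the partner chain of SLA-DMB, had probe sets that differ in size. The brighter was at -0.40 ± 0.28 (SE; limma adjusted p = 0.407) with overlap, against -2.28 for SLA-DMB. Its values were 10.38, 9.70 and 10.26 in Large White boars and 9.76, 9.69 and 9.69 in Northeastern Indigenous boars. The dimmer SLA-DMA probe set was at -1.56 ± 0.51 (SE), with no overlap.

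**Figure D3:**
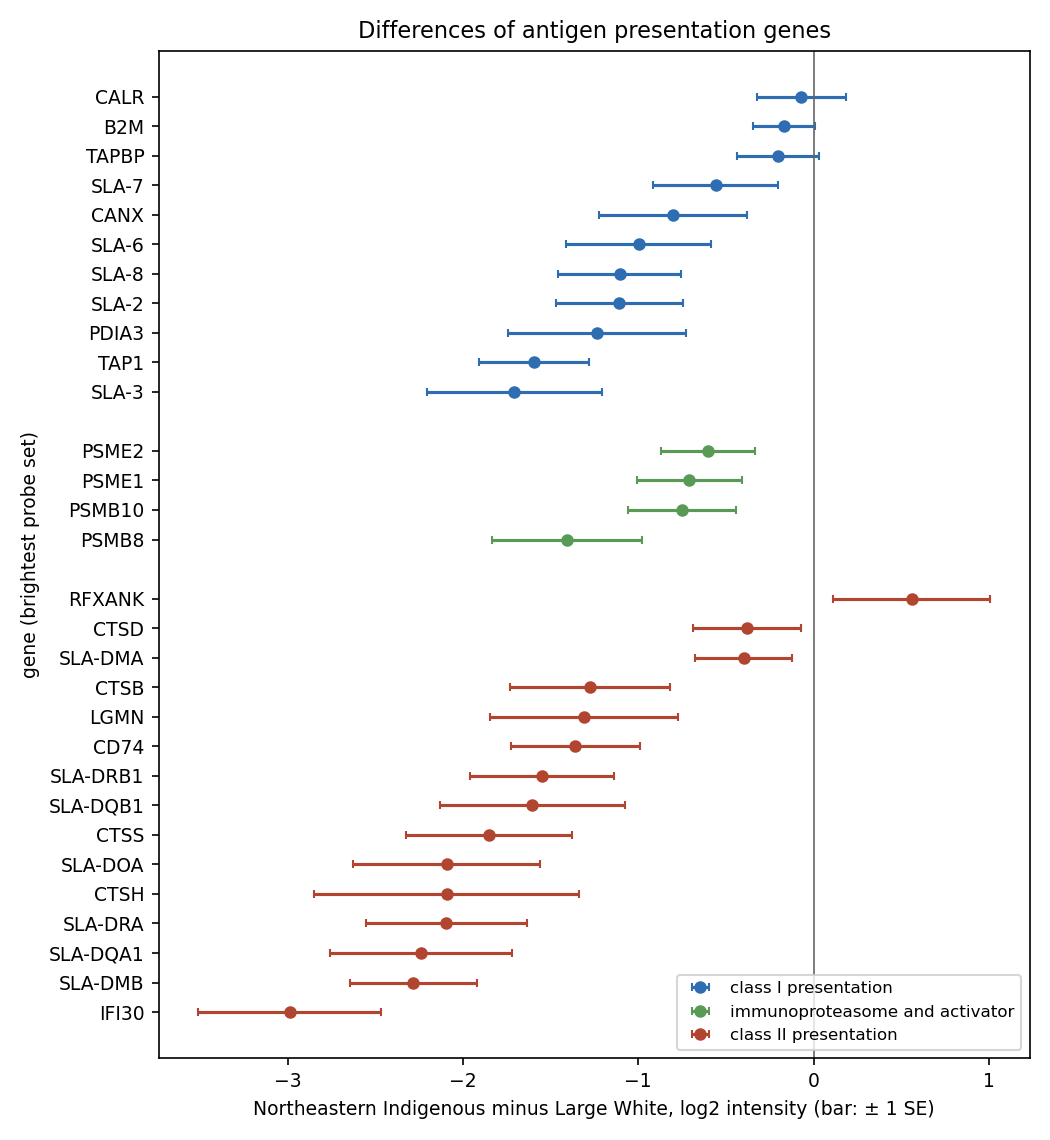
Difference in log2 intensity, Northeastern Indigenous minus Large White (x axis, bars 1 SE, n = 3 per breed), for the tested genes of the class I, immunoproteasome and class II lists (y axis, brightest probe set of each gene). Of these 30 genes only RFXANK lies above 0 here. CALR, TAPBP and B2M by its brightest probe set lie closest to 0, and B2M turns positive without quantile normalization or with arrays centred on their medians.

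Position in the genome was compared through the gene order of RefSeq's Sscrofa11.1 assembly. SLA-DRA, TAP1 and SLA-DMB lie in the same SLA class II block, while B2M and CD74 lie on other chromosomes. From SLA-DRA to SLA-DOA the assembly has 16 protein-coding genes, of which 10 were tested here. By the brightest probe set of each gene, all 10 had differences below 0 (45.3% of named genes) and 9 had no overlap between the breeds (12.3%). SLA-DMA overlapped by that probe set and not by its dimmer one. The 10 include the 3 members. The block held class I genes (TAP1 and PSMB8) among class II genes, at -1.60 and -1.41. CD74, outside the block, stood at -1.36, and other class II list genes outside it ran from -2.99 (IFI30) to 0.56 (RFXANK).

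The genes whose patterns were most like each member were sought among the tested named genes, by the root mean square difference of centred log2 intensities over the 6 arrays. For TAP1 the nearest were STAT2 (0.11), GBP2 (0.18) and SP140 (0.23), of which STAT2 is a transcription factor of interferon signalling and GBP2 an interferon-induced GTPase. For SLA-DRA they were SLA-DQA1 (0.12), CTSS (0.14), the cathepsin that trims the invariant chain, and PDGFRL (0.17). For CD74 they were CLIC2 (0.10), the collagen gene COL5A1 (0.12) and the matrix gene FBLN1 (0.13). For SLA-DMB they were the chemokine gene CXCL16 (0.14), the complement protease gene C1S (0.16) and CPQ (0.22). For the B2M probe set Ssc.12348.2.S1_at they were SERP1 (0.08), PEA15 (0.09) and STK17A (0.09). The nearest to Ssc.19916.2.S1_a_at included RFXANK (0.05), the class II list's gene above 0.

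Interferon-induced transcripts differed in the same direction as the members. All 18 measured interferon-induced genes were below 0, with a median of -1.64. Of them, 15 were at an unadjusted p under 0.05 (11.4% of named genes), 14 had no overlap (12.3%) and 0 passed the adjusted threshold. Below 0 were 45.3% of named genes. Relative to the Northeastern Indigenous mean, the list stood at 1.65, 1.67 and 1.1 in Large White replicates 1, 2 and 3. TAP1, at 2.15, 1.41 and 1.23, was likewise lowest on replicate 3. SLA-DRA, at 2.89, 1.11 and 2.29, and CD74, at 1.64, 0.72 and 1.72, were lowest on replicate 2 instead. In the list of interferon-gamma signalling, all 8 measured genes were below 0, with a median of -0.63, and 2 of them were at an unadjusted p under 0.05 (11.4% of named genes). Against Large White replicate 2 alone that median was -0.18, with 5 of 8 below 0 (share of named genes not computed). The 2 genes were STAT2 at -1.59 ± 0.31 and IRF1, an activator of class I and TAP1 transcription, at -1.41 ± 0.42 (SE; limma adjusted p = 0.224 for both). IRF9 and IRF8 differed by -0.67 ± 0.29 and -0.58 ± 0.31, and IFNG itself was below the filter.

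**Figure D4:**
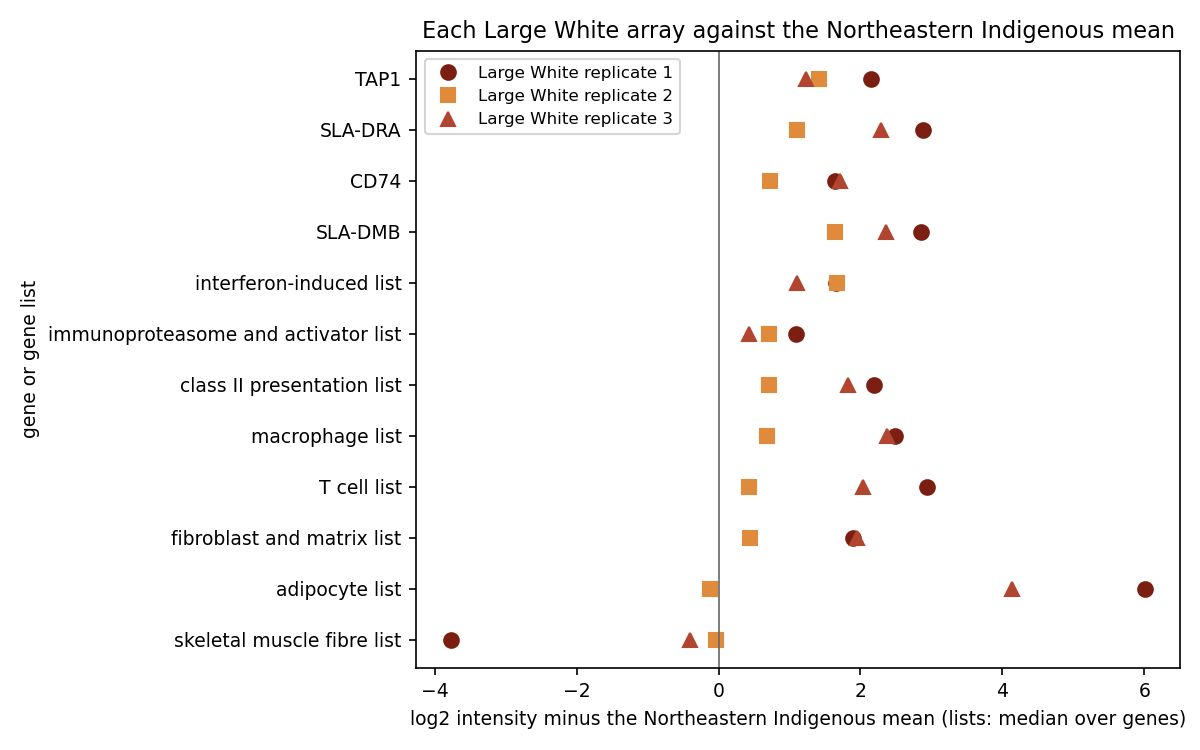
Log2 intensity on each Large White array minus the Northeastern Indigenous mean (x axis) for 4 members and, as the median over genes, for 8 gene lists (y axis). On replicate 2 the interferon-induced list lies at 1.67 and the macrophage list at 0.68, while the adipocyte and muscle fibre lists lie near 0.

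Markers of cells that carry class II differed by cell type. Of 12 measured macrophage genes, 11 were below 0 (45.3% of named genes), with a median of -1.86, and 0 passed the adjusted threshold. Their summed intensity was 8089 to 29738 in Large White and 2514 to 5006 in Northeastern Indigenous boars. C1QC and C1QA, complement genes made by macrophages, differed by -3.30 ± 0.58 and -2.44 ± 0.43 (SE). On Large White replicate 2 the macrophage list exceeded the Northeastern Indigenous mean by 0.68, against 1.64 for SLA-DMB, 1.41 for TAP1, 1.11 for SLA-DRA and 0.72 for CD74. ITGAM was the macrophage gene on the array that fell below the filter. The part of macrophage RNA in the members' differences was not tested.

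Dendritic and B cell markers were thinly covered. Of 17 dendritic cell genes 4 were measured, 2 of them below 0 (45.3% of named genes). Their summed intensity was 1328 to 2214 in Large White and 1081 to 1279 in Northeastern Indigenous boars. CD86, a costimulatory molecule of antigen-presenting cells, differed by -2.59 ± 0.71 and CD1.1, a lipid-presenting relative of class I, by -1.41 ± 0.51 (SE). The other two were above 0, with CD83, a marker of mature dendritic cells, at 0.62 ± 0.32 and the chemokine receptor XCR1 at 0.25 ± 0.48 (SE). Of 12 B cell genes 2 were measured, both below 0 (45.3% of named genes). Their sums were 891 to 3021 in Large White and 767 to 844 in Northeastern Indigenous boars. BLNK, an adaptor of B cell receptor signalling, was at -2.32 ± 0.40 and JCHAIN, of plasma cells, at -0.57 ± 0.59 (SE). CD1E, CCR7 and CD80 among the dendritic cell genes and CD79B among the B cell genes fell below the filter. Their part in the class II differences was not tested.

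All 7 measured T cell genes were below 0 (45.3% of named genes), with a median of -1.74. It was -2.62 without Large White replicate 2, -1.01 without Large White replicate 1, and -0.43 against Large White replicate 2 alone, with 6 of 7 below 0. The T cell genes had summed intensities of 652 to 2956 in Large White and 273 to 1009 in Northeastern Indigenous boars. The ranges overlapped, as did those of the NK cell list (566 to 956 against 292 to 651) and of the general leukocyte list (1600 to 6837 against 1038 to 2384). CD2, a T cell adhesion molecule, differed by -2.46 ± 0.53 (SE). It was the only 1 of the 7 T cell genes without overlap between the breeds (12.3% of named genes). Of the 7, 3 were at an unadjusted p under 0.05 (11.4% of named genes), and 0 passed the adjusted threshold. The 12 fibroblast and matrix genes had sums of 43979 to 119809 in Large White and 27024 to 40399 in Northeastern Indigenous boars, and a median of -1.36, which was -0.45 against Large White replicate 2 alone. Endothelial cells can also carry class II, and 6 of their 8 genes were above 0, with a median of 0.33, with sums of 2849 to 3686 and 2763 to 3767. The blood cell list of 4 genes had a median of -0.37, which turned to 0.18 without Northeastern Indigenous replicate 1. How far these cells contribute to the members' values was not tested.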

How the data were processed

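The values are linear probe set intensities, as the authors deposited them; the software behind them is not given in the sources used here. Each array's mean intensity, with the lowest and highest 2% removed, was 500.12 to 500.174, so the arrays share a scale. Arrays have no read depth, and their number limits the precision. The 124 Affymetrix control probe sets were dropped, log2 was taken and the arrays were quantile normalized. The dimmest 40% by mean log2 intensity were then removed, which left 14399 of 23999 probe sets and 5438 named genes.

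Symbols came from the platform annotation. Of the 23999 probe sets 10069 had 1 symbol, 198 several and 13732 none, and none was named from several. All 15 member probe sets matched RefSeq's Sscrofa11.1 gene table by identifier, with 0 symbols changed.

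The breed difference of every kept probe set was estimated in R 4.3.3 by limma 3.58.1 (two-sided; eBayes used an intensity trend; 4 residual degrees of freedom), and p-values were adjusted over all kept probe sets by Benjamini-Hochberg. The fit was tested on simulated data. Exact permutation p-values were two-sided.

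A gene in a list is represented by its brightest probe set. The 16 lists were described without a set test. Genes were named by a rule: every member probe set, up to 4 genes per pathway list and 2 per cell type list with the smallest unadjusted p, and the 3 nearest patterns per member. RFXANK, TAPBP, CALR and SLA-DMA were chosen after their values were seen. PDIA3, CANX, CD83 and XCR1, and list genes below the filter, were also named outside the rule. The members and lists were chosen with earlier results of these data known. Alternatives were other scalings, filters, an offset, variance priors, array weights, a replicate block, the mean of a gene's probe sets and leaving out arrays.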

Additional observations from a re-analysis of the deposited data

How the results depend on the processing

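The 6 member probe sets without overlap (TAP1, SLA-DRA, CD74, SLA-DMB and the Ssc.12348 pair of B2M) were below 0 in 96 of 96 values over 16 alternatives. Most of these signs were fixed in advance. Without overlap, leaving out or weighting arrays cannot turn the sign, and the filters, variance priors and replicate block left the differences unchanged. The offset keeps the order of probe sets within each array, so after quantile normalization it could not turn the sign either. Only the other scalings could have turned it. Over the 13 tested member probe sets, 182 of 208 values kept their direction and their side of the threshold, 19 became called and 7 changed sign. The causes of the changes were not tested.

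Without quantile normalization the B2M probe sets Ssc.8925.1.S1_at and Ssc.5896.1.S1_at were at 0.20 and 0.26, and with arrays centred on their medians at 0.34 and 0.40. Centring also gave 1 called probe set and a class I median of -0.61, and the endothelium median was 0.15 without quantile normalization. With no filter, which adds genes, the dendritic and B cell medians were 0.14 and -0.57. At an adjusted p under 0.1 limma called 1 probe set.

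Without Large White replicates 1 and 3 together, Ssc.12809.5.A1_at, Ssc.17269.1.S1_at and Ssc.19916.2.S1_a_at were at -0.56, -0.01 and -0.35. Medians there were -0.28 for class I, -0.71 for class II, -0.18 for interferon-gamma signalling, -0.68 for macrophages, -0.39 for B cells, -0.43 for T cells, -0.08 for leukocytes in general, -0.45 for fibroblast and matrix and 0.12 for adipocytes.

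Leaving out 1 array gave 0 to 4421 called probe sets, the highest without Large White replicate 2 and 1 without replicate 1. The differences ran from -1.78 to -1.32 for TAP1, -2.59 to -1.70 for SLA-DRA, -1.68 to -1.15 for CD74 and -2.61 to -2.0 for SLA-DMB. Those of the Ssc.12348 pair ran from -0.86 to -0.52 and from -1.50 to -0.85. For Ssc.12809.5.A1_at, Ssc.17269.1.S1_at and Ssc.19916.2.S1_a_at the ranges were 0.01 to 0.99, 0.56 to 1.32 and 0.19 to 1.08. The class I median ran from -1.38 to -0.68 and that of endothelium from 0.14 to 0.51.

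Array weights called 8499 of the 14399 tested probe sets, so a call there is common. They gave Large White replicate 3 a weight of 41.95 and no other array more than 1.36, so that fit rests mostly on 1 Large White array. It called TAP1 (-1.27), SLA-DRA (-2.29), CD74 (-1.68), SLA-DMB (-2.38) and 6 B2M probe sets (Ssc.8925.1.S1_at -0.29, the Ssc.12348 pair -0.76 and -1.24, Ssc.12809.5.A1_at 0.61, Ssc.17269.1.S1_at 1.12 and Ssc.19916.2.S1_a_at 0.73).

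Over all tested probe sets, same-numbered arrays of the breeds did not deviate together (correlations of -0.02, -0.16 and -0.11). These correlations cannot exclude a smaller shared effect, and the labels do not say what the number means. With the number as a replicate block limma called 0 probe sets, with TAP1 at -1.60 and SLA-DMB at -2.28, and no member call changed.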

Other observations

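The annotation assigns 8 probe sets to more than 1 SLA gene, and these entered no comparison above. The widest of them, Ssc.13780.11.S1_x_at, of class I genes, fell into a high and a low level that crossed the breeds. It read 9.45, 3.25 and 9.48 on Large White replicates 1, 2 and 3 and 9.67, 3.30 and 7.70 on Northeastern Indigenous replicates 1, 2 and 3. The 6.42 log2 units between its highest and lowest array were matched or exceeded by 0.431% of tested probe sets, and it was singled out after its values were seen. The breed difference was -0.50 ± 2.11 (SE; limma adjusted p = 0.898). Probe sets of several class I genes without such a split differed in direction. Ssc.13780.10.S1_x_at read 13.58, 12.40 and 13.32 against 11.95, 12.30 and 11.71, and Ssc.13780.4.S1_x_at had a like difference (-1.11 ± 0.34 and -1.11 ± 0.33, SE; limma adjusted p = 0.224 for both). Ssc.13780.10.A1_at read 7.58, 7.71 and 7.39 against 7.89, 8.51 and 8.26, higher in Northeastern Indigenous boars with no overlap (0.66 ± 0.27, SE; limma adjusted p = 0.255).

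The tested probe sets shared by DR beta genes of class II followed SLA-DRA. Ssc.210.7.S1_x_at read 11.24, 10.35 and 11.20 in Large White boars and 9.30, 10.05 and 8.29 in Northeastern Indigenous boars (-1.72 ± 0.49, SE; limma adjusted p = 0.224). Ssc.210.6.S1_x_at was at -2.02 ± 0.56 (SE; limma adjusted p = 0.224). In both, Northeastern Indigenous replicate 2 was the brightest array of its breed, as for SLA-DRA. Ssc.210.7.A1_x_at, below the filter and not tested, did not follow that order. It read 5.57, 5.59 and 4.37 in Large White boars and 4.21, 2.4 and 0.87 in Northeastern Indigenous boars.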
